A study of Mus musculus with 15 samples.

Results

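Glycolysis and the response to low oxygen were described here through 35 genes, chosen by symbol from the pathway and taken from 23420 genes in each raw count table. The choice was made with earlier results of these data known. Shares of all genes, given beside counts of members below, are therefore a description and no independent test of the pathway. The list holds 2 glucose transporters, 14 glycolytic enzymes, 3 genes of the pyruvate and lactate branch, 2 regulators of phosphofructokinase, 2 subunits of the hypoxia-inducible factor (HIF), 2 HIF prolyl hydroxylases and 10 other reported HIF targets. All 35 passed the filter on low counts in every comparison. The libraries came from whole lungs of wildtype CD1 mouse embryos, an outbred strain. Explants taken at E12.5 (E for embryonic day) spent 48 hours in culture at low or at high pressure, and other lungs were processed at isolation on E12.5, E13.5 or E14.5. RNA of 6 lungs was pooled for each low pressure and E12.5 library, and RNA of 3 lungs for each library of the other groups. Each of the 5 groups had 3 replicates, and the labels do not say whether these came from separate litters or cultures, so p-values measure the spread between these libraries. The labels used here give no pressure values and no oxygen tension. Pool size differs between the pressures, so pressure and pool size cannot be told apart. It also differs between E12.5 and each of E13.5, E14.5 and high pressure, so the same limit holds for those comparisons.

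Total gene counts ran from 31843739 to 44341263 per library in culture and from 18837343 to 21955244 in fresh lungs. The lung markers Nkx2-1, Epcam, Tbx4 and Foxf1 were detected in all 15 libraries (Nkx2-1 at 63.7 to 183 CPM, counts scaled to a common library size). Low pressure replicate 3 stood apart with 14637 detected genes, against 16465 to 16729 in the other 14. Replicate 1 of all 3 stages also stood apart, with ribosomal protein genes at 3.64% to 4.43% of counts against 1.79% to 2.27% in replicates 2 and 3. Cultured and fresh lungs stand in separate tables, so culture and table cannot be told apart. In whole-organ RNA, fewer cells of a type and less RNA per cell cannot be told apart either.

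Glycolysis splits glucose into pyruvate, which cells either pass to the mitochondria or reduce to lactate. When oxygen is plentiful, prolyl hydroxylases mark the alpha subunits of HIF for destruction. When it is scarce, the subunits persist, enter the nucleus and raise glucose transporters, glycolytic enzymes and signals such as Vegfa. The fetal lung develops at low oxygen tension, and HIF signalling is known to take part in its vascular and airway growth. HIF binds short DNA elements whose core reads ACGTG or GCGTG.

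Promoter windows of the members were read as a description of sequence only. RefSeq windows on GRCm38.p6, each the 250 bases before an annotated start, were at hand for 32 of the 35 members, not for Epas1, Ndrg1 or Slc2a3. Searched on both strands, with overlapping matches each counted, ACGTG or GCGTG stood in at least 1 window of 30 of 32 members (93.8%) against 41.5% of 27025 genes. The list holds reported HIF targets, so an excess of the core can follow from the choice of genes and says nothing about these libraries. Counted by window, a core stood in 82.6% of the 46 windows of members against 38.6% of 32851 windows. The median GC content was 63.4% for the members and 52.4% for all genes, and its part in that difference was not tested. Of the 16 members with a window that were lower at high pressure 15 held a core, and of the 16 others also 15. A match is a string of letters, not a shown binding site. The 5 members printed first had the largest falls at high pressure among those whose window lay almost outside annotated exons, and Pfkm had the smallest difference of the members not called under the same limit on exons. Capitals mark either core, read on the printed strand or as its reverse complement.
Bnip3, chr7:138909507-138909756, minus strand: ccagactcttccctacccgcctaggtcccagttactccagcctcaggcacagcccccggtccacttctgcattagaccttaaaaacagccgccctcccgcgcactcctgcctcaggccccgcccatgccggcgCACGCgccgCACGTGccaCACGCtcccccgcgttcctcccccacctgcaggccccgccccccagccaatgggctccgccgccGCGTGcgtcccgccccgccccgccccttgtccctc
Hk2, chr6:82774455-82774704, minus strand: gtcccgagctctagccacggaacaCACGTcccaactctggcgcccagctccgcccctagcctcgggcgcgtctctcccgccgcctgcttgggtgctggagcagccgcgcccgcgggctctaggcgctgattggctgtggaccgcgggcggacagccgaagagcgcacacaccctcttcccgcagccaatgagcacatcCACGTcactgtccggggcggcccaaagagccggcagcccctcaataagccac
Pdk1, chr2:71872974-71873223, plus strand: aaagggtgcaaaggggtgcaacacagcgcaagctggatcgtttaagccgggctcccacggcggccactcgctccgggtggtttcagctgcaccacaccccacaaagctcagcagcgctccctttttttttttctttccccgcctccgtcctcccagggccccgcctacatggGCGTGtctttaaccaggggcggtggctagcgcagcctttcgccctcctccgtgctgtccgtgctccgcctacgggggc
Pgam1, chr19:41911621-41911870, plus strand: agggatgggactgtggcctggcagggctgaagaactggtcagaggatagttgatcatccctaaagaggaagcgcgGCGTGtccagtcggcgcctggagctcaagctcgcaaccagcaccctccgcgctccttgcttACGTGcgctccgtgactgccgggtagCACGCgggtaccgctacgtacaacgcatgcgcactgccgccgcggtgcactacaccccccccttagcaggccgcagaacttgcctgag
Ankrd37, chr8:45999851-46000100, minus strand: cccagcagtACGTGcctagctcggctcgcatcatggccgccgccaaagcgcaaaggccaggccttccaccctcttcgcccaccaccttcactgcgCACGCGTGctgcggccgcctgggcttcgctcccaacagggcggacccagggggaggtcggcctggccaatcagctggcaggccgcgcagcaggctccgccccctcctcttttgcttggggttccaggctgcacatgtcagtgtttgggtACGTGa
Pfkm, chr15:98092339-98092588, plus strand: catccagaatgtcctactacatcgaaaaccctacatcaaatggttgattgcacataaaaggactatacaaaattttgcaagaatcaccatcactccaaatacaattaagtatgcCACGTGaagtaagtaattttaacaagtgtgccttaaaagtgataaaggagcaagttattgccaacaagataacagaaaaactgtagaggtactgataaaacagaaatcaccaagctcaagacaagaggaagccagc
The Bnip3 window holds 2 ACGTG and 3 GCGTG matches, a CACGTG counting on both strands. Pdk1 has a single GCGTG, and Hk2 has 2 ACGTG. Pfkm, not called between pressures unless offsets for GC content and length were added, also holds the palindrome CACGTG, at the most upstream of its annotated starts.

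The 35 members together took 2.22% ± 0.121 (SD, n = 3) of all gene counts at low pressure and 1.44% ± 0.200 at high pressure. Fresh lungs gave them 0.604% ± 0.153 on E12.5, 0.540% ± 0.142 on E13.5 and 0.605% ± 0.157 on E14.5. Every low pressure library lay above every high pressure library, and every cultured library lay above every fresh one. The glycolytic enzymes held most of this share, 1.296% ± 0.0585 at low pressure against 0.408% ± 0.155 at E12.5. For the 10 other HIF targets the share was 0.431% ± 0.0227 at low pressure, 0.252% ± 0.0479 at high pressure and 0.0429% ± 0.00179 at E12.5.

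**Figure D1:**
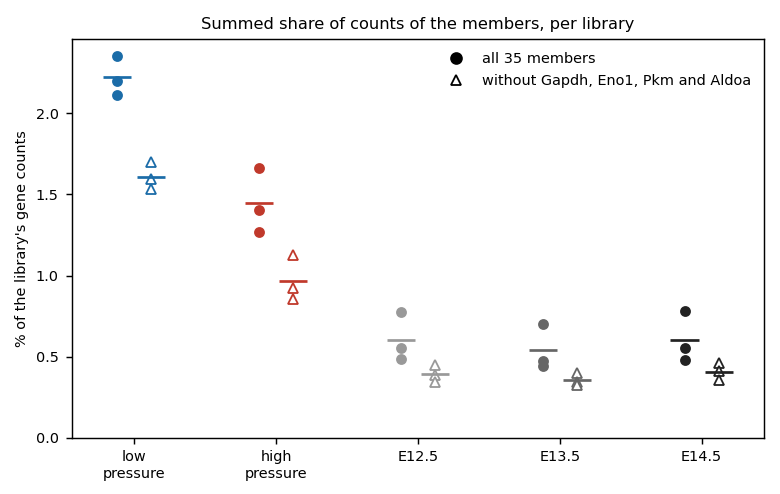
Percent of each library's gene counts that fell on the members (filled circles, all 35; open triangles, without Gapdh, Eno1, Pkm and Aldoa), for 5 groups of 3 libraries, with horizontal lines at group means. The low pressure libraries sit highest and the fresh lungs of the 3 stages lowest, with or without those 4 abundant or uncertain enzymes.

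Per length of exon (RPKM, on GENCODE M21 exons), Pgk1 at 793 ± 151 and Pgam1 at 719 ± 105 were the most abundant members at low pressure, and their ranges overlapped. Pkm at 640.4 ± 68.0, Tpi1 at 512 ± 105 and Aldoa at 485 ± 22.4 followed. In E12.5 lungs Pgam1 led with 273 ± 29.8 RPKM, ahead of Pkm at 227 ± 140.3 and Pgk1 at 198 ± 53.2. The ranges of both overlapped that of Pgam1. Vegfa reached 412 ± 27.6 RPKM at low pressure from 27.5 ± 9.29 at E12.5. Eno1 was the lowest of the 14 glycolytic enzymes, at 0.161 ± 0.0484 RPKM at low pressure and 0.309 ± 0.0852 at E12.5. Its 13 to 69 raw counts per library are no measure of enolase: 72.2% of the 50-base fragments of Eno1 transcripts also occur in other genes, 70.5% in the copy Eno1b. That copy, listed as Gm5506, had 476 to 5732 counts per library. The share of fragments found also in other genes was 82.5% for Gapdh, 68.0% for Pgk1, 62.4% for Bnip3 and 41.5% for Pgam1. It was 36.6% for Higd1a, 34.4% for Pkm and 25.3% for Gpi1, so levels of all of these genes are uncertain.

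High pressure was first compared with low pressure in culture. 18 of the 35 members were lower at high pressure and 0 were higher, at an adjusted p below 0.05 in edgeR's quasi-likelihood test with Benjamini-Hochberg adjustment over 14937 genes. Of all genes tested 12.2% were called lower and 14.0% higher. The median log2 fold change (high minus low) was -0.68 over the members and 0.01 over all genes, and 33 of 35 members were below 0. For 21 members all high pressure libraries lay below all low pressure libraries, which held for 21.8% of all genes. The largest falls were those of Ndrg1, Slc2a3, Bnip3 and Hk2, while Hif1a and Epas1 themselves did not pass.

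**Figure D2:**
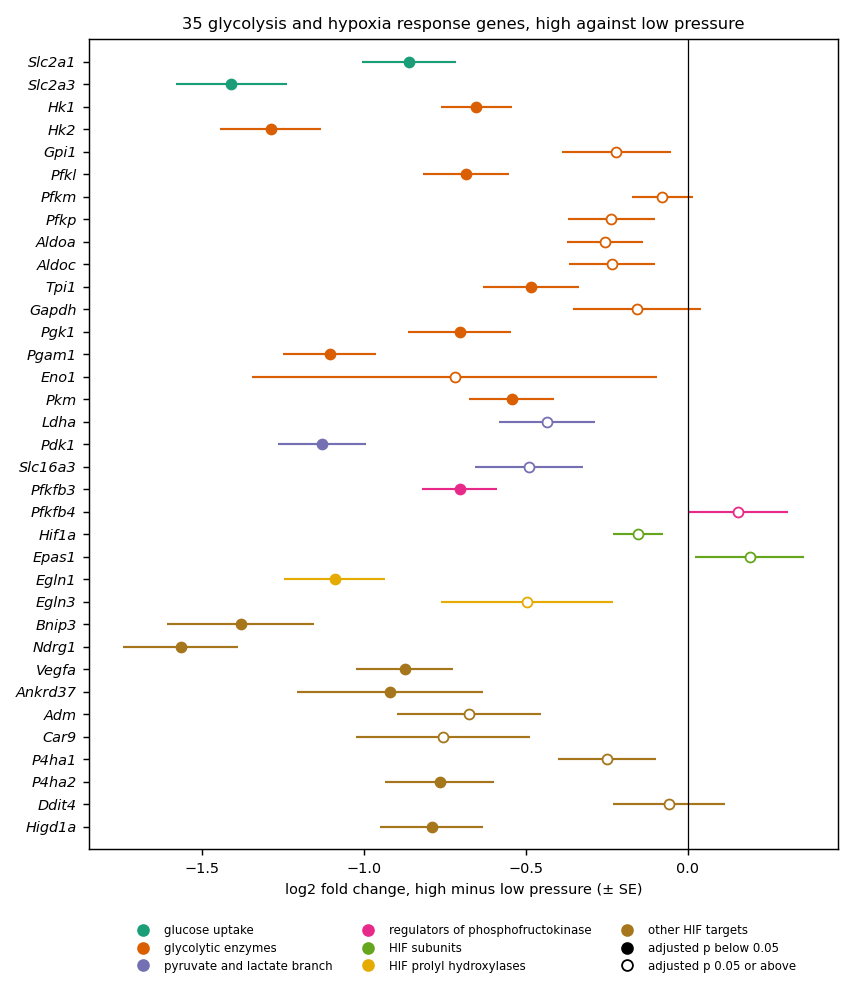
Log2 fold change of each member at high against low pressure (x axis, bars ± SE), coloured by role, with filled points for an adjusted p below 0.05. The 18 filled points all lie left of 0, from Ndrg1 at -1.57 to Tpi1 at -0.48, and the open points of Epas1 and Pfkfb4 lie right of it.

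Both glucose transporters fell. Slc2a1, the widely expressed transporter, had 1414, 1546 and 1695 CPM at low and 788, 735 and 1041 at high pressure, which is -0.86 ± 0.14 on the log2 scale (the error being the SE here and below; adjusted p = 0.0044). Slc2a3, a transporter of high glucose affinity, had 713, 878 and 612 CPM at low and 304, 218 and 308 at high pressure (-1.41 ± 0.17, adjusted p = 0.0014). In both genes the groups were far apart, and the highest library at high pressure stayed well under the lowest at low pressure.

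Of the 14 glycolytic enzymes 7 fell and 7 did not pass, and all 14 estimates were below 0. Both hexokinases, which trap glucose in the cell, were among the falls. Hk2 had 624, 707 and 671 CPM at low and 246, 228 and 345 at high pressure (-1.29 ± 0.16, adjusted p = 0.0013). Hk1 had 133, 157 and 126 CPM under low pressure, against 93.2, 80.8 and 90.6 under high (-0.65 ± 0.11, adjusted p = 0.0043). Hk2 libraries at high pressure were spread, with replicate 3 above the others, yet none reached the low pressure range.

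Phosphofructokinase commits sugar to glycolysis, and its isoforms differed in their calls. Pfkl, the liver-type isoform, had 338, 366 and 309.8 CPM at low and 223, 171 and 236 at high pressure (-0.69 ± 0.13, adjusted p = 0.0075). Pfkm (-0.08 ± 0.09, adjusted p = 0.58) and Pfkp (-0.24 ± 0.13, adjusted p = 0.23) overlapped between pressures. With offsets for GC content and length Pfkm was -0.33 ± 0.08 and passed (adjusted p = 0.029). The difference between isoforms was not tested.

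Further down the pathway, Tpi1, which interconverts the triose phosphates, had 1196, 1292 and 1739.7 CPM at low and 946, 971 and 1106 at high pressure (-0.48 ± 0.15, adjusted p = 0.044). Pgk1, the first step that makes ATP, had 1945, 2005 and 1389.8 CPM under low pressure, against 970.0, 1058 and 1249 under high (-0.70 ± 0.16, adjusted p = 0.014). Pgam1, which moves the phosphate of phosphoglycerate, had 1293, 1318 and 1665 CPM under low pressure, against 618, 594 and 774 under high (-1.11 ± 0.14, adjusted p = 0.0016). Low and high libraries were separate in all of these, most widely for Pgam1. Pkm, the pyruvate kinase of most fetal tissues, had 2851, 3228 and 3529 CPM at low and 2283, 1865 and 2442 at high pressure (-0.54 ± 0.13, adjusted p = 0.018), again with no overlap. The remaining enzymes Gpi1, Aldoa, Aldoc, Gapdh and Eno1 had log2 fold changes of -0.22, -0.26, -0.23, -0.16 and -0.72, with overlapping libraries and adjusted p-values from 0.14 to 0.59.

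In the pyruvate and lactate branch 1 of 3 fell. Pdk1, the kinase that holds pyruvate out of the mitochondria by inhibiting pyruvate dehydrogenase, had 388, 378 and 351 CPM at low and 175, 137 and 198 at high pressure (-1.13 ± 0.14, adjusted p = 0.0013), and its groups were clearly separate. Ldha, which makes lactate, missed the threshold with 922, 1077 and 806 CPM under low pressure, against 712, 574 and 790.3 under high (-0.43 ± 0.15, adjusted p = 0.061), although no library overlapped. Slc16a3, the lactate exporter, missed it too (-0.49 ± 0.17, adjusted p = 0.062). Pfkfb3, which makes the sugar phosphate that activates phosphofructokinase, fell from 323, 338 and 306 CPM to 183, 179.6 and 232 CPM (-0.70 ± 0.12, adjusted p = 0.0041). Its relative Pfkfb4 was scarce in culture, with 9.66, 9.06 and 8.18 CPM at low and 10.3, 9.55 and 10.1 at high pressure (0.16 ± 0.15, adjusted p = 0.50).

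Transcripts of the HIF alpha subunits did not pass the test. Hif1a had 235, 224 and 229 CPM at low and 204, 210.4 and 204 at high pressure (-0.15 ± 0.08, adjusted p = 0.18). All 3 high pressure libraries were slightly lower, but with offsets for GC content and length the estimate was 0.02. Epas1, the second alpha subunit and strong in endothelium, had 19.5, 19.4 and 15.2 CPM under low pressure, against 24.6, 19.7 and 17.6 under high (0.19 ± 0.17, adjusted p = 0.44), with overlap. HIF is controlled chiefly through the stability of its protein, which RNA counts do not measure.

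Among the prolyl hydroxylases, Egln1 is the main oxygen sensor of the pathway and itself a HIF target. Egln1 had 519.8, 563 and 388 CPM at low and 224, 203 and 264 at high pressure (-1.09 ± 0.16, adjusted p = 0.0024), with the groups separate. Egln3 ranged widely, at 152, 144 and 88.4 CPM under low pressure, against 64.4, 83.5 and 125 under high (-0.49 ± 0.27, adjusted p = 0.20), and overlapped.

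6 of the 10 other HIF targets fell. Ndrg1, a stress gene often used as a marker of hypoxia, had 595, 627 and 631 CPM at low and 254, 149 and 222 at high pressure (-1.57 ± 0.18, adjusted p = 0.0011). Bnip3, a receptor for the removal of mitochondria, had 632, 610.0 and 369 CPM under low pressure, against 179, 179.7 and 260.1 under high (-1.38 ± 0.23, adjusted p = 0.0039). Ndrg1 was nearly constant among low pressure libraries and Bnip3 was not, its replicate 3 lying closest to the high pressure group. Vegfa, the growth factor of blood vessels, had 1683, 1713 and 1902 CPM at low and 834, 855 and 1201 at high pressure (-0.87 ± 0.15, adjusted p = 0.0046). P4ha2, a collagen prolyl hydroxylase subunit, had 125, 134 and 128 CPM under low pressure, against 68.3, 60.4 and 98.8 under high (-0.77 ± 0.17, adjusted p = 0.013). High pressure replicate 3 was the highest of its group for both genes, and still below every low pressure library.

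The mitochondrial gene Higd1a had 83.8, 90.0 and 60.6 CPM at low and 41.5, 42.7 and 51.2 at high pressure (-0.79 ± 0.16, adjusted p = 0.0090). Ankrd37, a scarce ankyrin repeat gene, had 16.0, 19.0 and 21.5 CPM under low pressure, against 8.28, 6.66 and 14.9 under high (-0.92 ± 0.29, adjusted p = 0.046). Its lowest low pressure library and highest high pressure library almost met. The vasoactive peptide gene Adm (-0.68 ± 0.22, adjusted p = 0.055) and the carbonic anhydrase Car9 (-0.76 ± 0.27, adjusted p = 0.070) missed the threshold narrowly. The other collagen hydroxylase subunit P4ha1 (-0.25 ± 0.15, adjusted p = 0.26) and Ddit4, an inhibitor of mTOR signalling (-0.06 ± 0.17, adjusted p = 0.84), overlapped between pressures.

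12 of the 18 calls held whichever single library was left out. Tpi1, Pgk1, Pkm, Ankrd37, P4ha2 and Higd1a each lost the call in at least 1 of the 6 such fits. The count of members ran from 12 without high pressure replicate 2 (819 genes lower) to 23 without low pressure replicate 3 (2883 genes lower). In the main fit 1816 genes were lower. The counts of members and of all genes did not always move together. Without high pressure replicate 3, 20 members passed while 947 genes were lower. With GC and length offsets 24 members passed, while 1470 genes were lower. The added members were Pfkm, Aldoa (-0.59 ± 0.12, adjusted p = 0.013), Ldha, Slc16a3, Adm and Car9. With all 15 libraries in a single fit, 571 genes were lower and 8 members passed: Slc2a1, Slc2a3, Hk2, Pgam1, Pdk1, Pfkfb3, Egln1 and Ndrg1.

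**Figure D3:**
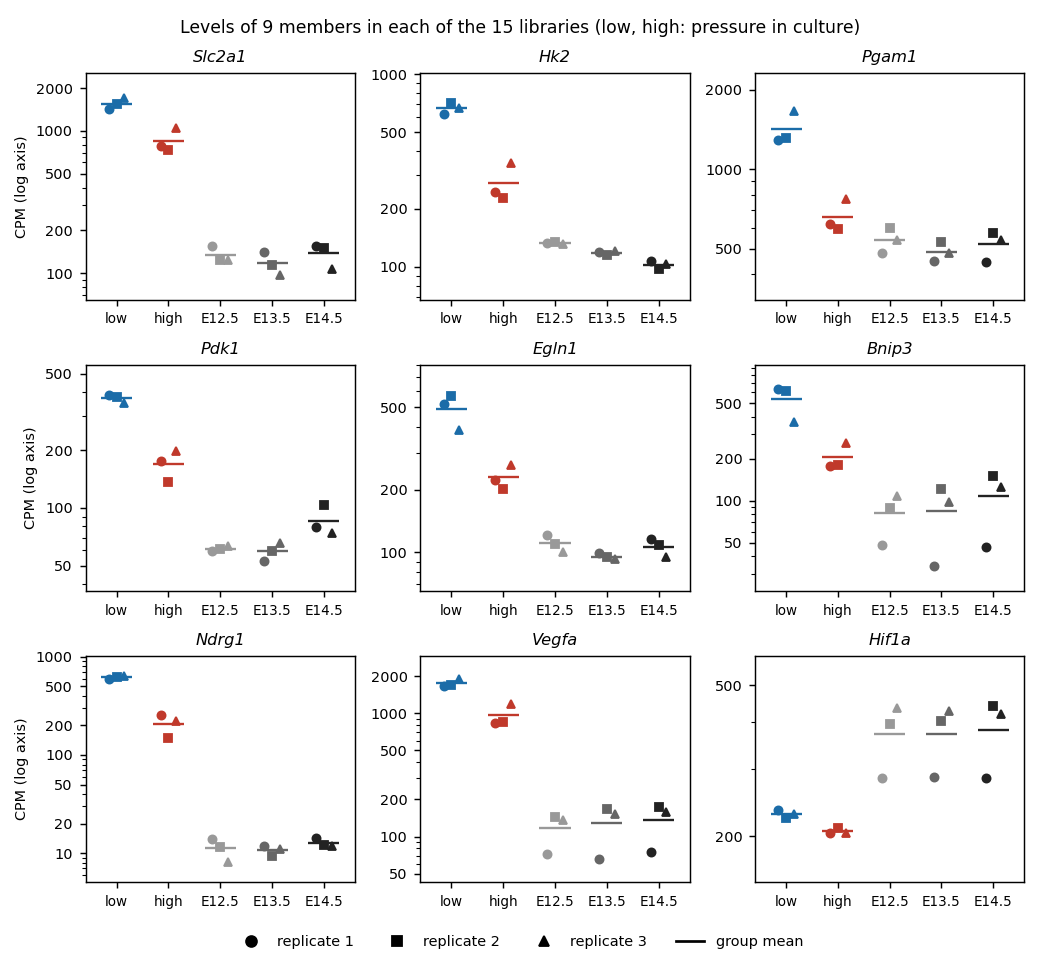
CPM on a log axis for 9 members in the 15 libraries, by group (low and high are the cultured lungs), with symbols for replicate numbers and lines at group means. For the 8 members that fell, low pressure lies above high pressure and the mean of each fresh stage lies lowest, whereas Hif1a is highest in the fresh lungs.

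Other genes of the pathways, from lists beside the 35, were called in both directions between pressures. These lists too were chosen with earlier results of these data known. Of 33 further reported HIF targets 16 were lower and 2 higher at high pressure, with a median log2 fold change of -0.53. Of all genes tested 12.2% were lower and 14.0% higher. Gbe1, the glycogen branching enzyme, fell from 71.3 ± 8.50 CPM to 27.6 ± 2.57 CPM (-1.37 ± 0.13, adjusted p = 0.00059). The glycogen synthase Gys1 and the histone demethylase Kdm3a fell by 0.97 ± 0.11 and 1.37 ± 0.17 on the log2 scale. The heme oxygenase Hmox1 (0.98 ± 0.20, adjusted p = 0.0098) and the matrix crosslinking enzyme Lox (0.43 ± 0.13, adjusted p = 0.042) rose.

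Genes of mitochondrial and side pathways were called in both directions, where 14.0% of all genes were higher and 12.2% lower. Of 20 genes of the citric acid cycle and pyruvate dehydrogenase 6 were higher, among them the citrate synthase Cs (0.45 ± 0.09, adjusted p = 0.0094), and 1, Dld, was lower (-0.39 ± 0.09, adjusted p = 0.016). In the pentose phosphate pathway 2 of 7 were higher, Taldo1 (1.38 ± 0.14, adjusted p = 0.00087) and Pgls (0.88 ± 0.14, adjusted p = 0.0040), and 0 lower. Of 19 tested isozymes and lactate genes outside the 35, 2 were higher and 1 lower, and of 13 further HIF pathway components 2 were higher and 5 lower. The isozymes and lactate genes were called no more often than all genes in either direction, and the higher components were near the share of all genes. The components that fell include Hif1an, the asparagine hydroxylase that blunts HIF activity (-0.60 ± 0.10, adjusted p = 0.0046), and the coactivator Ep300 (-0.53 ± 0.12, adjusted p = 0.014).

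Cell type markers moved with pressure too. The 8 epithelial markers summed to 709 to 832 CPM at low pressure and 1572 to 1678 under high pressure, and all 8 were called higher. The 8 endothelial markers summed to 226 to 375 CPM at low pressure, against 100.04 to 236 under high pressure, with 3 of 8 called lower. The 8 mesenchymal markers summed to 7171 to 7985 CPM at low pressure and 9280 to 11366 under high pressure, with 3 called higher and 4 lower. No marker of these lists was at 0. Ribosomal protein genes took 1.94% to 2.22% of counts at low pressure and 3.10% to 3.40% under high pressure, without overlap. The part of these shifts in the members' falls was not tested.

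Cultured lungs were then set beside fresh lungs of E12.5, the stage at which they were explanted, in a single fit of all 15 libraries. At low pressure 31 of 35 members were higher than at E12.5 and 2 lower, where 17.6% of 14940 genes were higher and 14.9% lower. At high pressure 27 were higher and 3 lower, where 22.3% of genes were higher and 21.3% lower. The median member log2 fold change was 2.46 at low and 1.33 at high pressure, and that of all genes was -0.02 in both. All 3 libraries of low pressure lay above all 3 of E12.5 for 32 members (23.9% of genes), and those of high pressure for 28 (30.3%). The comparisons share the E12.5 libraries, so their values are given side by side only.

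**Figure D4:**
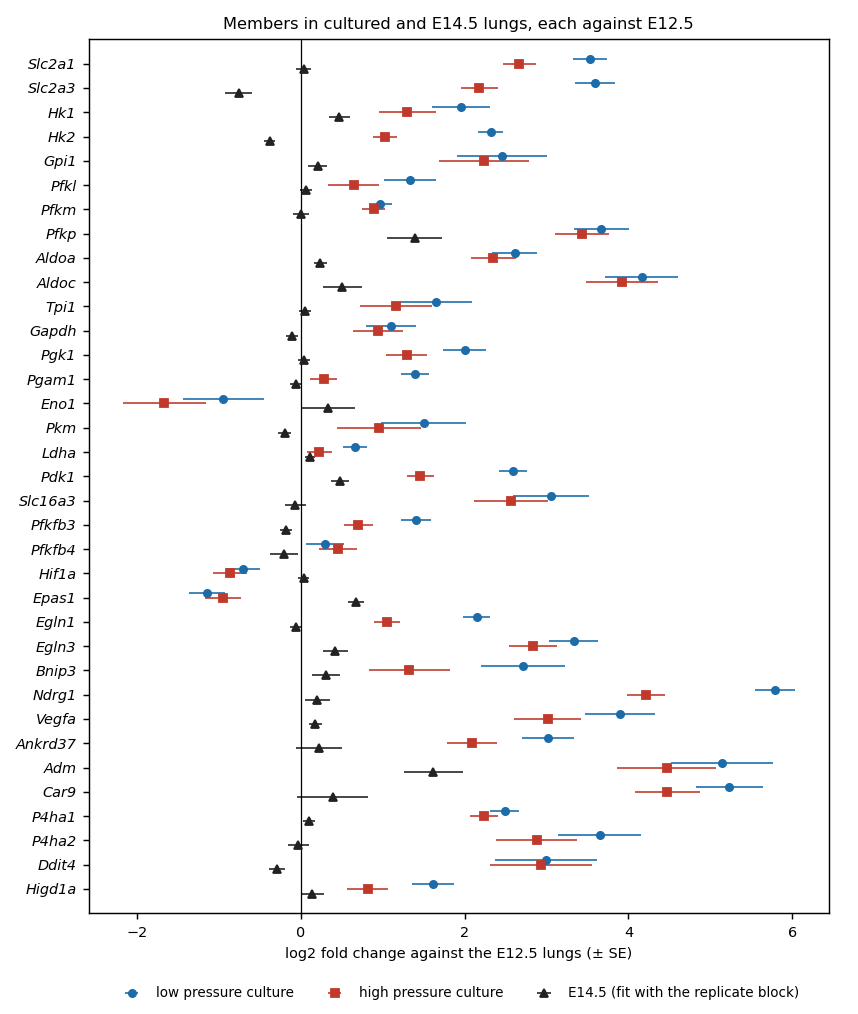
Log2 fold change against E12.5 (x axis, ± SE) for low pressure culture (circles), high pressure culture (squares) and E14.5 lungs (triangles, fit with the replicate block), by member. Nearly all circles and squares lie right of 0, up to 5.79 for Ndrg1, while the triangles lie between -0.76 for Slc2a3 and 1.62 for Adm.

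The largest differences were in genes with low levels in fresh lung. Ndrg1 had 13.8, 11.5 and 8.17 CPM at E12.5 and was 5.79 ± 0.25 log2 units higher at low pressure (adjusted p = 4.6e-08) and 4.22 ± 0.23 higher at high pressure (adjusted p = 1.2e-07). Car9 went from 0.626, 0.722 and 1.35 CPM at E12.5 to 38.4, 32.3 and 31.4 at low and 12.2, 19.9 and 28.5 at high pressure (5.23 ± 0.41 and 4.47 ± 0.40). Adm had 1.54, 0.948 and 0.251 CPM at E12.5, as few as 5 raw counts in a library, against 36.0, 37.2 and 24.4 at low and 17.0, 17.6 and 26.6 at high pressure (5.14 ± 0.62 and 4.47 ± 0.61). Every fresh library lay below every cultured library for these genes. Vegfa had 72.3, 145 and 137 CPM at E12.5, and was 3.89 ± 0.43 higher at low and 3.01 ± 0.41 higher at high pressure. The brain-type aldolase Aldoc (4.16 ± 0.44 and 3.93 ± 0.44) and the platelet-type phosphofructokinase Pfkp (3.67 ± 0.33 and 3.43 ± 0.33) were also among the largest.

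Both glucose transporters rose in both cultures. Slc2a1 had 155, 123 and 123 CPM at E12.5 and was 3.53 ± 0.21 higher at low and 2.67 ± 0.20 higher at high pressure. For Slc2a3, with 41.9, 59.3 and 79.9 CPM at E12.5, the differences were 3.59 ± 0.24 and 2.18 ± 0.23. All 10 of the other HIF targets and both prolyl hydroxylases passed in both cultures. Egln3 was 3.33 ± 0.30 and 2.84 ± 0.29 above E12.5, and Egln1 2.15 ± 0.16 and 1.05 ± 0.16. Ddit4, which did not separate the pressures, was 2.99 ± 0.62 and 2.93 ± 0.62 above E12.5.

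Several members passed against E12.5 at low pressure and not at high pressure; the difference between the pressures is the one tested above. Pgam1 had 483, 601 and 539 CPM at E12.5 and was 1.39 ± 0.17 higher at low pressure (adjusted p = 6.2e-05), against 0.28 ± 0.17 at high pressure (adjusted p = 0.20). Ldha was 0.66 ± 0.15 higher at low pressure (adjusted p = 0.0046) and 0.23 ± 0.15 at high (adjusted p = 0.24). Pfkl (0.64 ± 0.31, adjusted p = 0.11) and Pkm (0.95 ± 0.51, adjusted p = 0.15) did not pass at high pressure either, and replicate 1 of E12.5, at 1938 CPM for Pkm, lay far above replicates 2 and 3. Misses of the threshold here do not show equal levels. The replicate block in this fit also covered the cultures, whose replicate numbers do not pair. With it the counts were 31 higher and 2 lower at low pressure, where 28.2% and 28.0% of genes were called. At high pressure they were 31 higher and 3 lower, where 32.1% and 31.3% were, and Pgam1 (adjusted p = 0.0044), Pfkl (adjusted p = 0.00014), Pkm (adjusted p = 1.3e-06) and Pfkfb4 (adjusted p = 0.028) gained the call. Ldha did not (adjusted p = 0.13).

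The HIF subunits went the other way. Hif1a had 285, 395 and 434 CPM at E12.5 and was lower in low (-0.70 ± 0.21, adjusted p = 0.021) and high pressure culture (-0.86 ± 0.21, adjusted p = 0.0053). Epas1 had 34.9, 42.4 and 41.5 CPM at E12.5 and was lower too, at -1.14 ± 0.22 and -0.95 ± 0.22 (adjusted p = 0.0016 and 0.0036). At low pressure Hif1a lost the call without any 1 low pressure library, E12.5 replicate 2 or E12.5 replicate 3, which left 1 of the 2. Each cultured library lay below each E12.5 library for both subunits. Eno1 was the third gene lower at high pressure (-1.66 ± 0.51, adjusted p = 0.018), on the few counts named above. The neuronal enolase Eno2, not among the 35, had 5.44, 3.11 and 2.36 CPM at E12.5, 212, 250.3 and 221 at low and 116, 153 and 202 at high pressure (5.97 ± 0.42 at low pressure, adjusted p = 9.1e-07).

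Marker lists differed between cultured and fresh lungs as well. Erythroid markers summed to 2928 to 3536 CPM at E12.5, 247 to 613 under low pressure and 371 to 516 under high pressure, with Hba-a1 and Hba-a2 listed at 0 in every library. Endothelial markers summed to 458 to 684 CPM at E12.5, and leukocyte markers to 31.0 to 65.2 at E12.5 against 182 to 241 at low pressure. Mesenchymal markers summed to 4174 to 4762 CPM at E12.5, 7171 to 7985 under low pressure and 9280 to 11366 under high pressure. Of the 8, 3 were called higher and 1 lower at low pressure, and 4 higher and 2 lower at high pressure. Their part in the members' differences was not tested.

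Fresh lungs were compared across the 3 stages. Without a term for replicate number 0 members and 0 genes passed in any of the 3 stage comparisons. At an unadjusted p below 0.05 there were 1, 4 and 5 members (of 123, 977 and 1328 genes) for E13.5 against E12.5, E14.5 against E13.5 and E14.5 against E12.5. DESeq2 called 0, 270 and 457 genes, with 1 member higher and 1 lower, both for E14.5 against E12.5. Replicate 1 stood apart: in all 3 stages it lay above both other replicates for 19 members and below both for 6, against 36.7% and 31.2% of all genes.

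**Figure D5:**
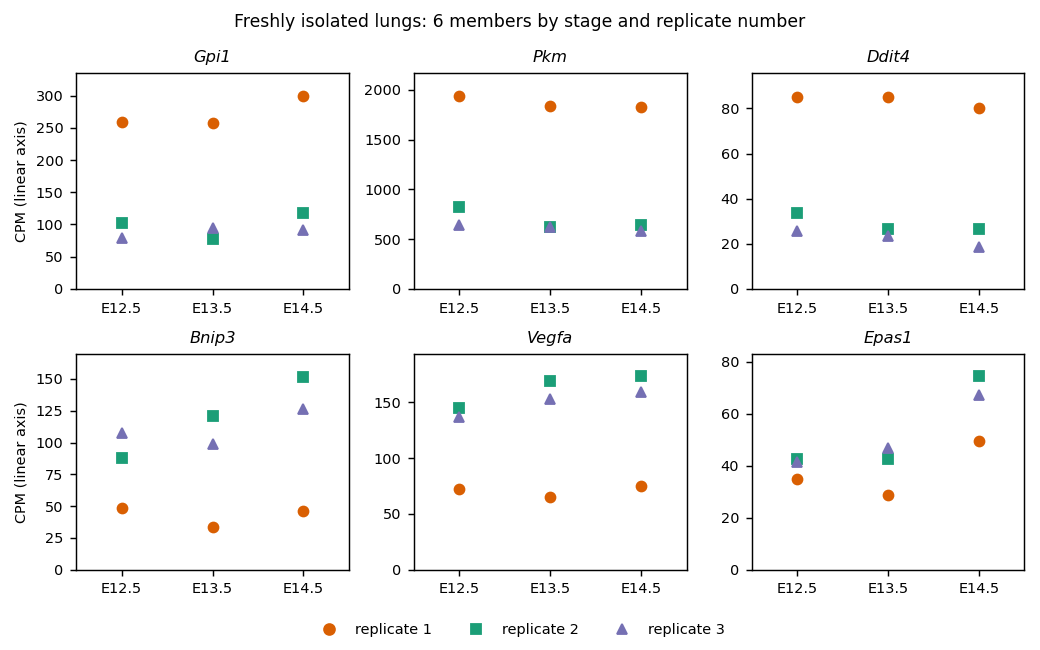
CPM on linear axes for 6 members at the 3 stages, with colour and symbol for the replicate number. Replicate 1 lies far above the others for Gpi1, Pkm and Ddit4 and far below them for Bnip3 and Vegfa at each stage, whereas Epas1 is highest at E14.5 within every replicate number.

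Replicate 1 differed widely from the others for several members. Gpi1, which turns glucose phosphate into fructose phosphate, was 2.85 to 2.99 times the mean of replicates 2 and 3, and Pkm 2.65 to 2.99 times. Ddit4 was 2.88 to 3.57 times that mean. Bnip3, in contrast, was 2.02 to 3.23 times lower in replicate 1, and Vegfa 1.95 to 2.46 times lower. Pgam1, Pfkfb3, Hif1a and Epas1 were the other members below both replicates at every stage.

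With the replicate number as a block, 5 members rose from E13.5 to E14.5 and 0 fell, where 4.15% of 14242 genes were called higher and 1.86% lower. Epas1 had 28.9, 42.6 and 46.9 CPM at E13.5 and 49.6, 74.5 and 67.1 at E14.5 (0.70 ± 0.10, adjusted p = 0.0042). Pdk1 had 53.0, 59.7 and 65.2 CPM at E13.5, against 79.0, 104 and 74.3 at E14.5 (0.52 ± 0.11, adjusted p = 0.020). Each E14.5 library of these genes was above each E13.5 library. Ldha had 500.3, 532 and 476 CPM at E13.5 and 614, 679 and 616 at E14.5 (0.34 ± 0.06, adjusted p = 0.012), also without overlap. Aldoa had 251, 166 and 153 CPM at E13.5, against 359, 273 and 185 at E14.5 (0.50 ± 0.08, adjusted p = 0.0075). Pfkl had 169, 92.6 and 86.6 CPM at E13.5, against 197, 117 and 102 at E14.5 (0.27 ± 0.07, adjusted p = 0.049). For Aldoa and Pfkl the stages overlapped, and the rise was seen within each replicate number. Pairing of numbers 2 and 3 between stages is not shown. Without E13.5 replicate 2, 0 members passed, and without E13.5 replicate 1, E14.5 replicate 2 or E14.5 replicate 3 there were 2, 3 and 3. With GC and length offsets added to the block, 6 members were higher and 2 lower (575 genes higher and 764 lower, against 591 and 265). A term for replicate 1 in place of the block gave 3 members higher and 0 lower (570 genes higher and 238 lower).

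From E12.5 to E14.5, 5 members rose and 2 fell with the block, where 7.33% of genes were called higher and 3.63% lower. Epas1 rose from 34.9, 42.4 and 41.5 CPM (0.67 ± 0.10, adjusted p = 0.0028) and Pdk1 from 59.7, 61.1 and 63.3 CPM (0.47 ± 0.11, adjusted p = 0.020). Pfkp had 11.7, 8.22 and 5.01 CPM at E12.5 and 15.7, 30.8 and 17.1 at E14.5 (1.39 ± 0.33, adjusted p = 0.047). All E14.5 libraries were above all E12.5 libraries for these genes. Adm had 1.54, 0.948 and 0.251 CPM at E12.5 and 5.70, 1.78 and 1.35 at E14.5 (1.62 ± 0.36, adjusted p = 0.017), on low counts and with overlap. Hk1 had 54.6, 27.9 and 24.6 CPM at E12.5, against 64.1, 47.5 and 32.2 at E14.5 (0.47 ± 0.13, adjusted p = 0.042), also overlapping.

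Slc2a3 and Hk2 were the members that fell, while Slc2a1 did not pass and Hk1 rose. Slc2a3 had 41.9, 59.3 and 79.9 CPM on E12.5, then 40.1, 43.9 and 41.6, and on E14.5 34.3, 36.4 and 34.2 (-0.76 ± 0.16 over the whole interval, adjusted p = 0.023). Hk2 had 134, 135 and 131, then 119.5, 115 and 120.4, then 107, 97.1 and 103 CPM (-0.38 ± 0.07, adjusted p = 0.0062). Both were lowest at E14.5 in every replicate number, and the E12.5 and E14.5 libraries did not overlap. Hif1a had 285, 395 and 434 CPM at E12.5 and 285, 442 and 419 at E14.5, replicate 1 being the low library of each stage (0.04 ± 0.07, adjusted p = 0.76). From E12.5 to E13.5, 0 members passed with the block, as did 0.00702% of genes. For E14.5 against E12.5, leaving out E12.5 replicate 2, E14.5 replicate 2 or E14.5 replicate 3 gave 2 members higher and 1 lower each, and leaving out E12.5 replicate 3 or E14.5 replicate 1 gave 3 higher. With GC and length offsets added to the block there were 5 higher and 4 lower (1052 genes higher and 1614 lower, against 1044 and 517). A term for replicate 1 in place of the block gave 3 members higher and 2 lower (1057 genes higher and 535 lower).

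Striated muscle markers moved with stage, at 8.05 to 40.7 CPM in sum at E12.5 and 361 to 1537 at E14.5, with Myh6 and Tnnt2 the most abundant. Endothelial markers summed to 458 to 684 CPM at E12.5 and 722 to 957 at E14.5. Mesenchymal markers summed to 4174 to 4762 CPM at E12.5 and 5922 to 6573 at E14.5, with 3 called higher and 1 lower with the block. Erythroid markers summed to 2928 to 3536 CPM at E12.5 and 515 to 1422 at E14.5, and all 8 tested were below 0, with 3 called lower with the block. Their part in the members' changes was not tested.

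Lastly, the pressure effect was set against the stage effect in the embryo, as high against low pressure minus E14.5 against E12.5. High against low pressure compares cultures of equal length and is no change over time. The difference was below 0 for 33 of 35 members, with a median of -0.75 against -0.01 over all genes. The members' median log2 fold change was 0.10 for E14.5 against E12.5 and -0.68 between pressures. As a median, the difference thus largely repeats the pressure effect. 2 members passed, both lower, where 0.622% of 14940 genes did. Ndrg1 differed by -1.75 ± 0.29 (adjusted p = 0.019) and Pdk1 by -1.60 ± 0.23 (adjusted p = 0.015). The stage estimate in the stage fit without the block was 0.48 ± 0.16 for Pdk1 (adjusted p = 0.32) and 0.19 ± 0.23 for Ndrg1 (adjusted p = 1.0), above 0 for both, while both pressure estimates were below 0. With the replicate block, which in this fit also covered the cultures, 20 members passed, where 9.99% of genes did. The replicate numbers do not pair the cultures. Without the replicate 1 libraries of the stages 13 members passed (1115 genes lower). In the fit without the block, where 2 members passed, leaving out E12.5 replicate 2 gave 0.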

How the data were processed

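RNA-seq was made from 15 pools of whole embryonic lungs (5 groups, 3 replicates each). Per the labels' protocols, RNA was isolated with the QIAGEN RNeasy fibrous tissue kit and libraries were made with the PrepX RNA-Seq kit. The authors deposited raw counts of reads per gene, 1 table for the cultured lungs and 1 for the stages; 2 of 8 deposited tables were used, the others being not used here. The submitters' processing notes name cutadapt 1.6, Bowtie 1.1.1, TopHat 0.9, HTSeq, DESeq2 2.1.8.3 and the mm10 build, without roles. The strand setting is not given in the sources used here, and reads shared by near-identical copies of a gene may have been dropped or split. No column of per-sample values was left unmapped.

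The members and gene lists were chosen with earlier results of these data known. Counts were filtered (filterByExpr) and tested in R 4.3.3 with edgeR 4.0.16 (TMM scaling, robust quasi-likelihood F-test, Benjamini-Hochberg adjustment over all genes, threshold 0.05). The pressures were fitted in their own table, the 3 stages together, and culture against E12.5 in all 15 libraries. SEs are the log2 fold change divided by the root of F. CPM used TMM effective library sizes, which total counts would move by at most 1.41% for a member's group mean. Gene lengths and exons came from GENCODE M21 (mm10). No replicate was a duplicate of another by a chi-square test of counts.

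Same replicate numbers deviated together in the stages (r 0.539 to 0.900 over 9 pairs, other pairs -0.825 to 0.743), so the fit with a replicate block is given there. Only replicate 1 was set apart: replicate 2 with 3 gave r 0.560 to 0.743, against 0.539 to 0.714 for same-number pairs of 2 or 3. Pairing of numbers 2 and 3 is thus not shown, and a term for replicate 1 alone called fewer members. In the pressure table same numbers did not deviate together (-0.028 to 0.0036 over 3 pairs). In fits of all 15 libraries the block covered both tables. Alternatives were DESeq2 1.42.0, GC and length offsets (mgcv 1.9.3), no filter, a term for replicate 1, the block, all 15 libraries in a single fit, and leaving out libraries. Simulated counts with an assumed spread were run through the pressure fit, the stage fit with the block and fits of all 15 libraries. The stage fit without the block was not included, and the simulated spread was not taken from these libraries. Library values are given for members called between pressures or stages and for Hif1a and Epas1; of each other list at most 3 genes a direction with the smallest p are named. Values of other members, Eno2 and libraries that stand apart were chosen after values were seen.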

Additional observations from a re-analysis of the deposited data

Results flagged for a closer look

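Ndrg1 responded differently to pressure in culture than to age in the embryo: high against low pressure minus E14.5 against E12.5 was -1.75 ± 0.29 on the log2 scale (adjusted p = 0.019, edgeR's quasi-likelihood test over 14940 genes). The call held in 9 of 12 fits that each left out 1 library, with estimates from -1.91 to -1.57 and adjusted p-values from 0.023 to 0.063. It was lost without E12.5 replicate 2, high pressure replicate 3 or low pressure replicate 2.

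For Pdk1 the same difference was -1.60 ± 0.23 (adjusted p = 0.015). This call held in 11 of 12 such fits, with estimates from -1.73 to -1.44 and adjusted p-values from 0.0090 to 0.059, and was lost without E12.5 replicate 2.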

How the results depend on the processing

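No called direction reversed under any alternative run. With GC and length offsets the uncalled pressure estimates of Hif1a and Pfkfb4 changed sign, to 0.02 and -0.01. The cause of the shifts below was not tested. Between pressures 3905 genes passed, 1894 to 6257 leaving out 1 library (2411, 1894 and 2016 without high pressure replicates 1, 2 and 3, and 6257 without low pressure replicate 3), with 12 to 23 members. All 15 libraries in a single fit gave 1121 genes and 8 members. The replicate block gave 3137 genes and 18 members, so it changed no member count; its numbers do not pair the cultures.

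For the stages the replicate block gave 1 gene for E13.5 against E12.5, 856 for E14.5 against E13.5 (5 members higher) and 1561 for E14.5 against E12.5 (5 higher, 2 lower). A term for replicate 1 gave 1, 808 and 1592 genes (3 members higher, then 3 higher and 2 lower). DESeq2 gave 270 and 457 genes for the last 2 comparisons (1 member higher and 1 lower for the whole interval), and all 15 libraries in a single fit gave 29 and 161. Without replicate 1 of the 3 stages, chosen after seeing the data, they were 62 genes (1 member higher) and 1119 genes (2 higher, 2 lower). For E14.5 against E12.5, no filter gave 9 genes and GC and length offsets also 9. Leaving out 1 library without the block gave 0, 0, and 0 to 3 genes and 0 members. With the block, a fit also added after seeing the data, it gave 0 to 41, 77 to 832 and 435 to 1977 genes.

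Low pressure against E12.5 gave 4857 genes, 8384 with the replicate block, 7968 without replicate 1 of the stages and 3454 to 4988 leaving out 1 library (28 to 31 members higher). High pressure gave 4947 to 6988 genes then, with 23 to 28 members higher and 2 to 3 lower. The difference of pressure and stage effects gave 108 genes, 2877 with the replicate block, 629 by DESeq2, 2035 without replicate 1 of the stages and 6 to 282 leaving out 1 library.

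The members' share of counts without Gapdh, Eno1, Pkm and Aldoa was 1.61%, 0.968%, 0.394%, 0.355% and 0.407% (low, high, E12.5, E13.5, E14.5). With all 35 members and 1 library left out it ran from 2.16% to 2.28%, 1.34% to 1.53%, 0.518% to 0.665%, 0.459% to 0.588% and 0.517% to 0.668%. Low counts limit Adm, Car9 and Eno1 most.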

Other observations

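Of 20 tested isozymes and lactate genes outside the 35, 3 were higher and 1 lower at E14.5 than at E12.5 with the replicate block, where 7.33% and 3.63% of all genes were, and 0 passed without it (5 at an unadjusted p below 0.05). The pyruvate dehydrogenase kinase Pdk4 had 0.893 ± 0.0758 CPM (SD, n = 3) at the earlier and 6.57 ± 5.17 at the later stage (log2 difference 2.73 ± 0.52 SE, adjusted p = 0.015 in edgeR). The muscle phosphoglycerate mutase Pgam2 went from 0.685 ± 0.577 to 16.1 ± 10.7 CPM (4.56 ± 0.89, adjusted p = 0.040). Pdk2, another pyruvate dehydrogenase kinase, went from 12.03 ± 5.87 to 18.7 ± 6.27 CPM (0.69 ± 0.16, adjusted p = 0.021). Pklr, the pyruvate kinase of liver and red cells, went from 1.29 ± 0.833 to 0.335 ± 0.225 CPM (-1.91 ± 0.42, adjusted p = 0.016). Over the same interval the summed striated muscle markers went from a range of 8.05 to 40.7 CPM to a range of 361 to 1537, and the erythroid markers from 2928 to 3536 down to 515 to 1422. The part of these marker shifts in the isozyme changes was not tested.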
